A study of Mus musculus with 3 samples.

Results

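The collagen genes other than type IV were followed through the cells of 3 single-cell libraries of mouse kidney cortex. A gene was taken as a member if its symbol was Col, a number, a and a number, if it was not one of the 6 type IV genes, and if it had at least 20 unique molecular identifiers (UMIs, tags that each stand for 1 captured RNA molecule) over all barcodes. Of the 38 collagen genes other than type IV among the 22535 genes of the tables, 30 were members. Just inside the limit lay Col8a2 with 34 UMIs and Col17a1 with 36, and just outside it lay Col10a1 with 19 and Col9a3 with 16. By the structure of their proteins, the members were 11 fibril-forming collagens, 4 genes of type VI, 5 fibril-associated collagens, 2 network-forming genes of type VIII, 1 anchoring-fibril gene (Col7a1), the 2 multiplexins Col15a1 and Col18a1, 4 transmembrane collagens and Col26a1.

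All 3 libraries came from WT1CreERT2; Rosa26-tdT fl/+ mice, in which tamoxifen switches on the red reporter tdT in cells that express Wt1, which in the kidney are podocytes and part of the parietal epithelial cells (PECs). The library named Sham mixed sorted tdT+ with tdT- cells of mice given sham surgery. The library named IRI24h-TDN mixed them likewise after severe ischemia of both kidneys and 24 h of reperfusion (ischemia-reperfusion injury, IRI), and the one named IRI24h-TD held the tdT+ fraction of such kidneys without the other. Where 3 values follow each other, they stand in the order Sham, IRI24h-TDN, IRI24h-TD. The sort fixes how many cells of a type were loaded, so the number of cells in a class is not a result here. With 1 library per condition, and several kidneys in each library, no difference between libraries has a replicate check, no test was run, and intervals cover counting error only.

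The libraries held 69980443, 92355554 and 93470709 UMIs. After filtering, 26760 cells were kept (8047, 9024 and 9689), with a median of 7746, 9151 and 9529 UMIs. Between 102 and 114 barcodes occurred in a pair of libraries, and leaving them out moved no member across a limit. Cells were clustered without any collagen gene, and the clusters were named from marker lists that hold none. They gave 18451 podocyte-like, 2207 PEC-like, 766 mural-like (smooth muscle, renin and mesangial cells), 45 fibroblast-like, 309 endothelial-like, 3502 tubule-like and 1438 immune-like cells, and 42 cells without a name. The share of cells with a listed marker cannot check the names, since the clusters were named from the same lists. Synpo was found in 99.3% of podocyte-like cells and 41.2% of cells elsewhere, and Pax8 in 73.9% of PEC-like cells and 14.7% elsewhere. Notch3 was found in 92.2% of mural-like cells and 1.28% elsewhere, and Dcn in 100% of fibroblast-like cells and 1.01% elsewhere. Within a list the share varied, in PEC-like cells from 34.7% (Vcam1) to 78.2% (Akap12). A group of 502 PEC-like cells (211, 107 and 184), described with that class, went against its name. Its podocyte markers stood far above its PEC markers. IRI24h-TD held 8918 podocyte-like and 610 PEC-like cells but only 15 mural-like cells, 6 endothelial-like cells and 1 fibroblast-like cell, so that it is compared in the first 2 classes only.

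Collagens are secreted or membrane proteins built from chains wound around each other, and many need the chains of several genes. Type I, the main fibril of scar and bone, joins α1 chains (Col1a1) with an α2 chain (Col1a2), type III (Col3a1) forms fibrils with it, type V starts the fibrils, and type VI makes a beaded net around cells from the products of Col6a1, Col6a2 and a further gene. Type XVIII (Col18a1), whose cleaved end is endostatin, lies in basement membranes together with type IV. In the kidney, fibril collagens are best known as products of fibroblasts and mural cells.

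Each level is given as CPM, the UMIs of a gene per 1000000 UMIs of the class. In all, 16 members had their highest level in the 45 fibroblast-like cells, 6 in mural-like cells, 4 in tubule-like cells, 2 in PEC-like cells and 2 in endothelial-like cells, while 0 had it in podocyte-like cells. For 24 of the 30, the interval of the highest class lay apart from that of the second; it did not for Col7a1, Col11a2, Col17a1, Col20a1, Col24a1 and Col25a1, all of low counts. Podocyte-like cells, as 68.9% of the kept cells, nevertheless held 65.3% of all UMIs of the members, against 8.81% in fibroblast-like cells. Without Col18a1, the podocyte-like share was 47.5% and the fibroblast-like share 24.7%.

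**Figure D1:**
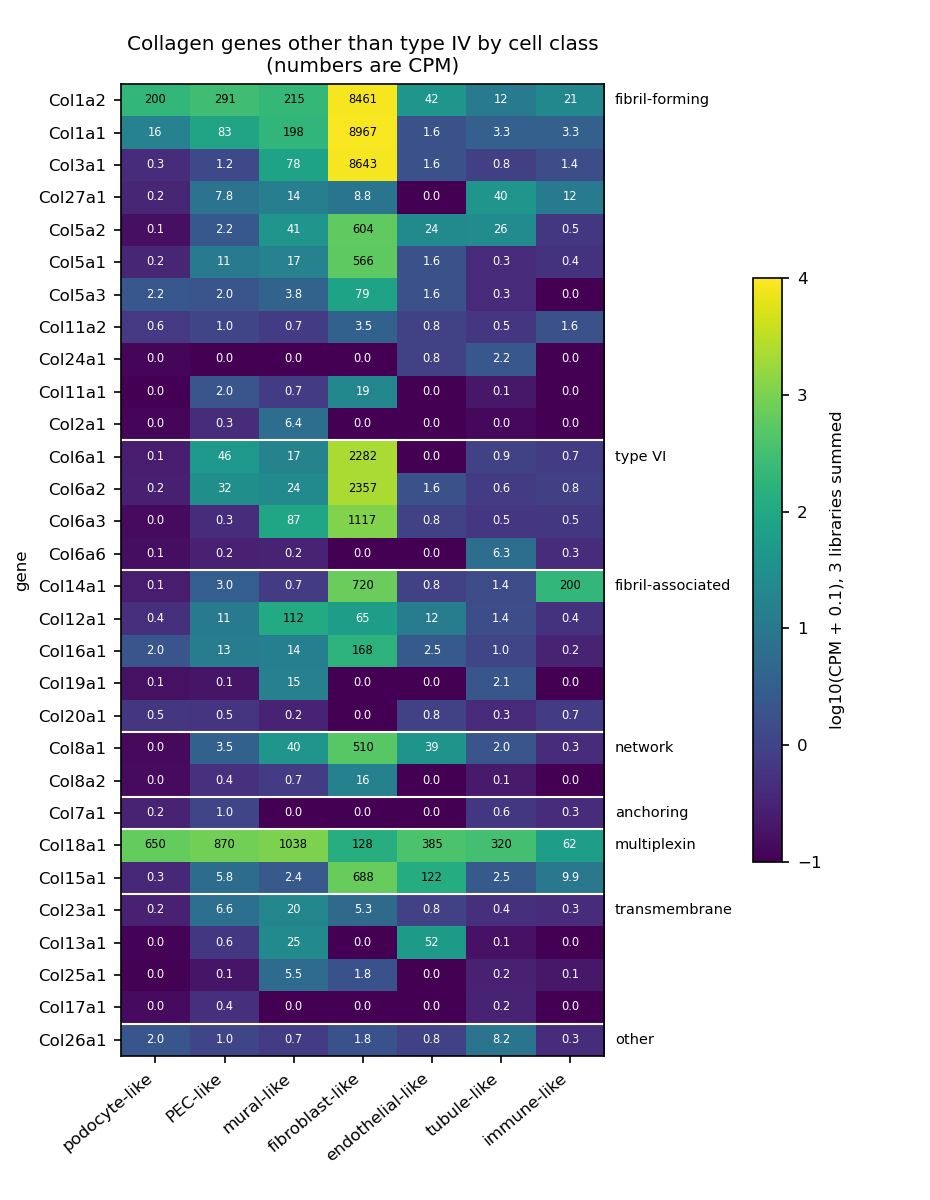
Level of each of the 30 members (rows, grouped by protein structure) in the 7 named cell classes (columns); colour is log10 of CPM + 0.1 over the 3 libraries summed, and the printed number is CPM. Fibroblast-like cells hold the highest level of 16 members, and Col18a1 and Col1a2 are the 2 members at more than 100 CPM in podocyte-like cells (649.6 and 200.2).

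Cells also differed in how many members they showed together. With every cell thinned to 2400 UMIs, which left out 1368 shallower cells, a fibroblast-like cell showed 9.31 members on average and a mural-like cell 2.33. PEC-like cells showed 1.51, podocyte-like cells 1.06, endothelial-like cells 0.750, tubule-like cells 0.651 and immune-like cells 0.473. Leaving Col18a1 and Col1a2 out, podocyte-like cells showed 0.0500 further members and PEC-like cells 0.499, so that most single podocytes with a collagen UMI had one of these 2 genes.

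As a common yardstick, members at least 4-fold higher in a class than in all other kept cells were counted and set beside the same count over all 17022 genes with enough UMIs. In fibroblast-like cells 19 members passed, where 8.1% of all genes did, and 14 of the 19 had at least 20 UMIs in the class itself. In mural-like cells 13 passed against 7.26% of all genes, and 12 of them had 20 UMIs in the class. PEC-like cells had 6 (Col6a1, Col6a2, Col5a1, Col11a1, Col16a1 and Col23a1) against 8% of genes, and tubule-like cells had 6 (Col27a1, Col5a2, Col26a1, Col6a6, Col19a1 and Col24a1) against 12.9%. Endothelial-like cells had 3 (Col15a1, Col8a1 and Col13a1) against 7.91%, immune-like cells had Col14a1 alone against 10.8%, and podocyte-like cells had 0 against 3.01%.

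The chains of type I collagen differed between classes in how they were paired. Col1a2 was found at 8461 CPM in fibroblast-like, 291 in PEC-like, 215 in mural-like and 200.2 in podocyte-like cells. The last 3 values lay close together. Col1a1 was found at 8967, 83.0, 198 and 16.1 CPM in the same classes, so that it was low in podocyte-like cells where Col1a2 was not. Per UMI of Col1a2 there were 1.06 UMIs of Col1a1 (interval 1.02 to 1.10) in fibroblast-like cells, 0.922 (0.841 to 1.01) in mural-like cells, 0.285 (0.270 to 0.300) in PEC-like cells and 0.0806 (0.0775 to 0.0837) in podocyte-like cells. Without the 502 PEC-like cells of podocyte profile, PEC-like Col1a2 was at 199 CPM and the ratio was 0.436 (0.409 to 0.464). These class values average unlike groups, described below. The ratio was 0.270 in PEC-like cluster 7, 0.137 in cluster 9 and 0.816 in cluster 17. Of the finer mural groups, 529 cells had 840 UMIs of Col1a1 and 546 of Col1a2, and 237 cells had 56 and 426. The order of the classes thus did not hold in every group. How well each of the transcripts is captured is not known, so the ratio is read only between classes or groups of cells.

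Col3a1 separated the classes more sharply still. It was at 8643 CPM in fibroblast-like and 78.4 in mural-like cells, but at 1.16 in PEC-like and 0.333 in podocyte-like cells. Per UMI of Col1a1 it had 0.964 UMIs in fibroblast-like cells, 0.395 in mural-like cells, 0.0140 in PEC-like cells and 0.0207 in podocyte-like cells. Type I transcripts in the epithelial cells of the glomerulus thus came almost without type III. Dcn and the other fibroblast markers summed to 0.807 CPM in podocyte-like cells and 27.5 in PEC-like cells, against 15986 in fibroblast-like cells.

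Regions around a transcript start of both genes are shown because Col1a2 was present in podocyte-like and PEC-like cells and Col3a1 was nearly absent from them. Each runs from 250 bases before to 50 bases after a transcript start in RefSeq on GRCm38.p6, 5′ to 3′ on the strand of the gene, with the CCAAT box and the GC box GGGCGG in capitals where they occur on either strand (written ATTGG and CCGCCC on the other one).
Col1a2 (chr6:4505368-4505667, plus strand): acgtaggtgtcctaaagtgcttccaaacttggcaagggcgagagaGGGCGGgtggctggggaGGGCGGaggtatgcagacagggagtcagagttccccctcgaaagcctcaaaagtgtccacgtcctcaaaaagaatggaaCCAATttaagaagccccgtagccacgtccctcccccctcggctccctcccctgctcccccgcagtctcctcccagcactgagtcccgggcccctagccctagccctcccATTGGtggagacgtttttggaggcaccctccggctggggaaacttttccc
Col3a1 (chr1:45311288-45311587, plus strand): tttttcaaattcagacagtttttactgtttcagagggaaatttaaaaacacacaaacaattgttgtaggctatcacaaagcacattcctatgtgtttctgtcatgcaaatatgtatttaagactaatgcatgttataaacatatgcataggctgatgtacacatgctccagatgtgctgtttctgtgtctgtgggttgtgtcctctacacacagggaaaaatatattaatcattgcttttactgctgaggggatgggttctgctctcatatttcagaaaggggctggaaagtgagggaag
The genes themselves span chr6:4504814-4541544 for Col1a2 and chr1:45311538-45349706 for Col3a1 in GENCODE M21 on GRCm38, and Col1a1 spans chr11:94936224-94953042, all on the plus strand. The window of Col1a2, set by RefSeq, thus lies inside the GENCODE span of the gene and not before it. The window of Col1a2 held 2 CCAAT and 2 GC boxes, and that of Col3a1 held 0 of either. Any part of these boxes in the levels was not tested. Entries were found for 24 members, with 26 windows in all, and not for Col1a1, Col2a1, Col5a2, Col12a1, Col14a1 and Col26a1. The GC box was in 16 of the 26 windows (61.5%) and in 35.7% of all 32851 windows in the table, and CCAAT was in 8 (30.8%) against 37.4%.

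In podocyte-like cells, the cells with foot processes that cover the glomerular capillaries, Col1a2 was found at 249.6, 192 and 184 CPM. It was thus lower in both IRI libraries, by a ratio of 0.768 (0.746 to 0.791) in IRI24h-TDN. A UMI of it was present in 50.8%, 46.5% and 46.5% of the cells. Immune-like cells, which should lack the gene, had one in 6.33% of Sham and 6.05% of IRI24h-TDN cells, at a median of 5305 UMIs per cell against 9130 in podocyte-like cells. Expression was uneven: 2410 of the 18451 podocyte-like cells held 5 or more UMIs of Col1a2, and they carried 63.5% of its podocyte-like UMIs.

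Col1a1 differed the other way. In podocyte-like cells it had 146, 1044 and 1567 UMIs, which is 4.05, 20.9 and 18.4 CPM. IRI24h-TDN was 5.17-fold (4.35 to 6.19) and IRI24h-TD 4.55-fold (3.84 to 5.43) above Sham. The share of cells with a UMI was 2.32%, 8.91% and 8.61%. In immune-like cells, which should lack Col1a1, it was 0.487% in Sham (2 of 411 cells, at a median of 4178 UMIs) and 1.88% in IRI24h-TDN (19 of 1009 cells, at 5883), with levels of 1.83 and 3.81 CPM. This background was thus also higher in IRI24h-TDN, and its part in the podocyte-like values was not tested. In podocyte-like cells, Col1a1 per Col1a2 was 0.0162, 0.109 and 0.09999. The direction was the same in 7 of the 7 podocyte-like clusters with enough UMIs (1.84-fold to 14.2-fold) for IRI24h-TDN and in 6 of 7 for IRI24h-TD (0.933-fold to 4.03-fold). Col1a2 was lower in 8 of 8 clusters in both comparisons. The ratio of Col1a1 in IRI24h-TDN to Sham depended on how cells were assigned: it was 2.79 where each cell took the class of its own marker UMIs and 3.26 where clusters were formed without aligning the libraries.

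The 1333 podocyte-like cells with a Col1a1 UMI were set beside those without one. Both lay in clusters named by podocyte markers, so those markers do not check what the cells are. Podocyte markers summed to 36244 CPM in cells with a Col1a1 UMI and 38341 in those without, and Wt1 stood at 1066 and 1123. Fibroblast markers of the cells with a Col1a1 UMI depended on the library. In the 100 such cells of Sham these summed to 17.3 CPM against 1.25 in the other podocyte-like cells, and Col3a1 was at 4.07 against 0.371. In IRI24h-TDN the fibroblast markers were at 1.44 against 0.955 and Col3a1 at 0.618 against 0.689. In IRI24h-TD the markers were at 0.231 against 0.327 and Col3a1 at 0.346 against 0.0393. The part of fibroblast RNA in the Sham cells was not tested. Cluster 5, led by Ctgf, Angptl7 and Prss23, had the highest Col1a1 of the podocyte-like clusters, at 43.2 CPM. It held 62, 429 and 1124 of the podocyte-like cells of the libraries, and Col1a1 stood there at 36.1, 66.6 and 33.7 CPM. Without this cluster, podocyte-like Col1a1 was 4.67-fold higher in IRI24h-TDN than in Sham.

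**Figure D2:**
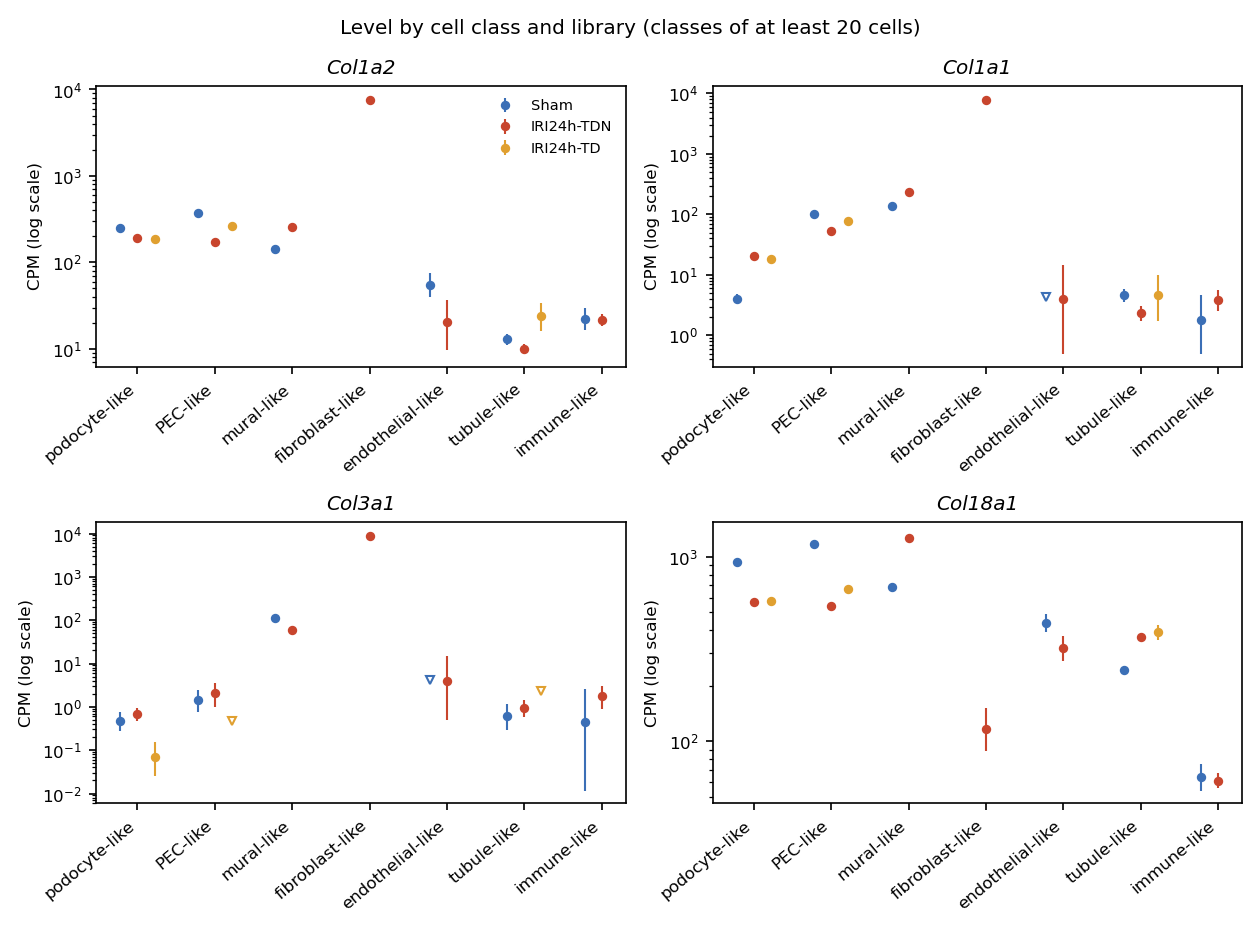
Level (CPM, log scale) of Col1a2, Col1a1, Col3a1 and Col18a1 in each class of at least 20 cells, with 1 point per library and bars for the 95% counting interval; an open triangle marks the floor of 3 UMIs where a library had 0. Podocyte-like Col1a1 lies at 4.05 CPM in Sham and at 20.9 and 18.4 in the IRI libraries, while Col1a2 lies between 184 and 249.6.

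Other fibril collagens were scarce in podocyte-like cells. Col5a3, a variant chain of type V, was the exception in its pairing: it had 374 UMIs there against 42 of Col5a1, or 8.90 per UMI of Col5a1 (6.46 to 12.6), while the ratio was 0.139 to 0.227 in PEC-like, mural-like and fibroblast-like cells. Its level was 2.50, 1.99 and 2.17 CPM, with overlapping intervals. Col11a2 stood at 0.561 CPM over the libraries, and Col27a1, Col5a1 and Col5a2 at 0.246, 0.246 and 0.0585.

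Over all members compared in podocyte-like cells (15 with at least 20 UMIs in Sham and IRI24h-TDN together), 3 were at least 2-fold higher in IRI24h-TDN, where 5.62% of all genes were, and 2 were at least 2-fold lower, where 9.25% were. The median log2 ratio of the 15 was -0.33, against -0.05 over all genes compared. The 3 higher members were Col1a1, Col16a1 and Col12a1. Col16a1, a fibril-associated collagen, had 8, 98 and 238 UMIs (0.222, 1.97 and 2.80 CPM), which is 8.86-fold (4.32 to 21.1) and 12.6-fold (6.30 to 29.5) higher than in Sham. No podocyte-like cell had more than 3 of its UMIs. With the 3 cells of most UMIs left out of each library, Sham included, the first ratio was 16.3. That value rests on fewer than the 8 UMIs of Sham. The libraries filled the podocyte-like clusters unequally, and inside clusters the ratio of Col16a1 was less certain. For IRI24h-TD it was 0.731 (0.128 to 29.1) in cluster 1 and 1.95 (0.329 to 79.2) in cluster 3, each with 1 UMI in Sham. In clusters where Sham had 0 UMIs, IRI24h-TDN was at least 6.89-fold (cluster 2) and 1.51-fold (cluster 5) higher, and IRI24h-TD at least 1.47-fold (cluster 5). Col12a1, which binds the surface of type I fibrils, had 4, 26 and 32 UMIs, a ratio of 4.70 with a wide interval (1.63 to 18.5), and it was 1.68 where each cell took the class of its own marker UMIs. At most 2.11% of the podocyte-like cells of a library had a UMI of either gene. The 2 lower members, Col27a1 (31 and 7 UMIs) and Col20a1 (36 and 17), were rare in these cells. In IRI24h-TD, 5 of 15 were higher than in Sham (5.55% of all genes) and 4 lower (11.1%).

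Col18a1 was the member with a UMI in most podocyte-like cells (97.3%, 96.5% and 93.2%). Its level was 936, 569.5 and 575 CPM, and so lower after IRI by a ratio of 0.609 (0.599 to 0.618) and 0.615 (0.606 to 0.623). Both IRI libraries lay close together and below Sham, and the ratio was under 1 in 8 of 8 podocyte-like clusters (0.484 to 0.767 for IRI24h-TDN). The gene lies at chr10:77052178-77166548 on the minus strand (GENCODE M21), and overlaps Slc19a1 on the other strand. Slc19a1 had 1.55 CPM in podocyte-like cells, and whether the counting used strand is not given in the sources used here.

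In mural-like cells Col18a1 was higher after IRI, and not lower as in podocyte-like and PEC-like cells; the difference between classes was not tested. It was at 683 CPM in Sham and 1264 in IRI24h-TDN, a ratio of 1.85 (1.73 to 1.98), and the 15 mural-like cells of IRI24h-TD gave 1251. Col1a2 (141 and 259.7 CPM) and Col1a1 (138 and 234) were also higher, by 1.84 (1.59 to 2.13) and 1.69 (1.46 to 1.97), while Col3a1 was lower (110.1 and 58.7, a ratio of 0.533). None of these reached 2-fold. Of 18 mural-like members compared, 0 were 2-fold higher (4.42% of all genes) and 1, Col2a1 with 21 and 6 UMIs, was 2-fold lower (6.16%). The median log2 ratio was -0.16, against 0.01 over all genes.

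Mural-like cells were the richest class for 6 members: Col12a1 at 112 CPM, Col18a1 at 1038, Col23a1 at 19.9, Col19a1 at 15.3, Col2a1 at 6.42 and Col25a1 at 5.54. Clustered more finely they split into a first group of 529 cells and a second of 237. Ren1, the gene of renin, stood at 5303 CPM in the first and 532 in the second, and Gata3 at 219.7 and 14.99. Rgs5 stood at 8675 and 16356, Notch3 at 826 and 2684, and Acta2 at 10662.5 and 8265. Ren1 had a UMI in 27.02% of all mural-like cells, so the first group is not read as renin cells alone. The first had the higher Col1a1 (254 against 46.6 CPM), Col3a1 (102 against 12.5), Col6a3 (113 against 14.99), Col12a1 (143 against 24.98) and Col18a1 (1157 against 710.2). The second had the higher Col1a2 (355 against 165), Col6a1 (39.1 against 9.36), Col6a2 (58.3 against 11.5) and Col16a1 (37.5 against 6.04). Collagens of types I, III and VI were thus split between both mural groups by gene. The first group had 228 cells in Sham and 291 in IRI24h-TDN, and the second 64 and 168, so that the mix moved with the ratios above. Inside the groups the ratio of IRI24h-TDN to Sham was 2.04 and 1.60 for Col18a1, 1.83 and 1.43 for Col1a2, and 1.92 and 2.22 for Col1a1. Col3a1 had a ratio of 0.604 in the first group and too few UMIs in the second.

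Type VI collagen differed between classes in its chains. Fibroblast-like cells had all 3 usual chains, with Col6a1 at 2282, Col6a2 at 2357 and Col6a3 at 1117 CPM. PEC-like cells had Col6a1 at 45.9 and Col6a2 at 31.5 CPM but only 7 UMIs of Col6a3, or 0.00709 per UMI of Col6a1 (0.00284 to 0.0147). The mural-like class was the reverse, with Col6a3 at 87.3 CPM and 5.05 UMIs of it per UMI of Col6a1 (3.95 to 6.53). Its finer groups differed in this. The group of 529 cells had 376 UMIs of Col6a3 and 31 of Col6a1, but that of 237 cells had 18 and 47. Fibroblast-like cells had 0.490 UMIs of Col6a3 per UMI of Col6a1. Podocyte-like cells held 0.181 CPM or less of each of the 3. Col6a6, which codes for an alternative to the α3 chain, had 4 UMIs in PEC-like cells, and 236 of its 255 UMIs in kept cells lay in proximal tubule. Type V showed a similar split: Col5a1 per Col5a2 was 4.90 (3.58 to 6.83) in PEC-like, 0.936 in fibroblast-like, 0.403 in mural-like and 0.0112 in tubule-like cells.

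The PEC-like class, named after the flat cells of Bowman's capsule, was made of 3 clusters with different collagens. It was not made of such cells alone. Its proximal tubule markers summed to 1990 CPM (2813, 1416 and 1194 by library), against 5434 for its PEC markers. Cluster 17 (379 cells, led by Tnc, Cp and Cdh6, with Osr2 and Akap12) held Col18a1 at 1872 CPM, Col6a1 at 97.4, Col12a1 at 33.7 and Col23a1 at 26.8. Cluster 7 (964 cells, led by Dkk3, with Ogn and Bgn among its leading genes) held Col1a2 at 769.9, Col1a1 at 208 and Col6a1 at 79.8. Cluster 9 (864 cells, led by Gc, Sox9 and C3, with the injury gene Havcr1) held Col18a1 at 779 but Col1a2 at 28.8, Col1a1 at 3.94 and Col6a1 at 1.08. The name PEC-like rests in part on Cp and Osr2, which the study listed as markers from these libraries. Podocyte markers summed to 17671 CPM in cluster 7, 46.3% of the podocyte-like level, and the part of podocyte RNA in these values was not tested.

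Clustered more finely, 420 cells of cluster 7 and 82 of cluster 9 went against the name. Their podocyte markers summed to 27000 and 29306 CPM and their PEC markers to 1116 and 879. The 420 cells held Col1a2 at 693 CPM, Col1a1 at 87.1, Col18a1 at 522 and Col6a1 at 5.97. A further 534 cells of cluster 7, with podocyte markers at 5822 CPM and PEC markers at 5181, held Col1a2 at 861, Col1a1 at 361, Col18a1 at 388 and Col6a1 at 172. Col1a2 was therefore high in both kinds of cell, and Col6a1 in the second. The other 1705 PEC-like cells, without the 502, had podocyte markers at 2411 CPM and PEC markers at 6744.

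**Figure D3:**
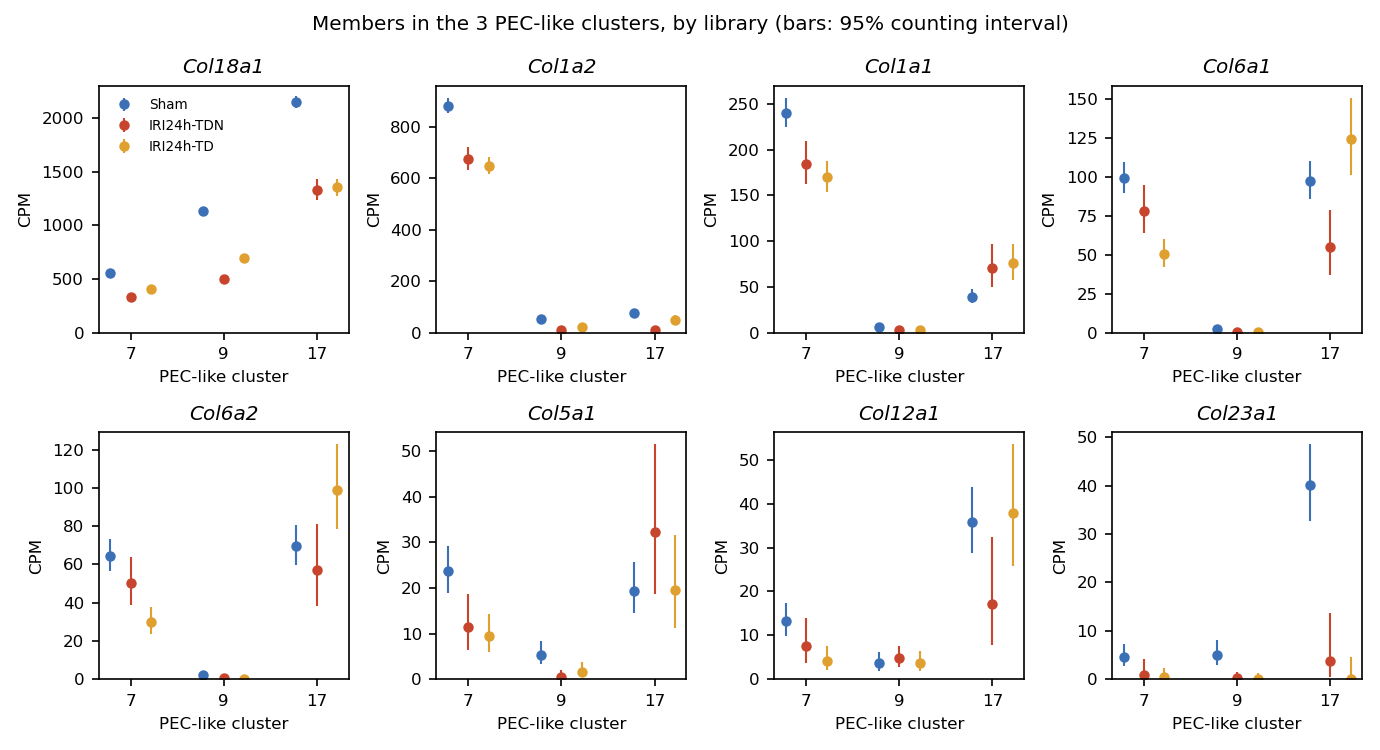
Level (CPM) of 8 members in the 3 PEC-like clusters, with 1 point per library and its 95% counting interval. Col1a2 and Col1a1 are high in cluster 7, Col18a1 and Col23a1 in cluster 17, Col6a1 in both, and Col18a1 is highest in Sham in each cluster.

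Over the whole PEC-like class, 18 members could be compared. Among them 10 were at least 2-fold lower in IRI24h-TDN than in Sham, where 12.6% of all genes were, and 1 (Col5a3, with 9 and 15 UMIs) was 2-fold higher, where 7.43% were. The median log2 ratio of the members was -1.13 and that of all genes -0.08. Col18a1 was at 1178, 540.4 and 669.8 CPM (ratio of IRI24h-TDN to Sham 0.459, 0.440 to 0.478), and the ratio lay between 0.391 and 0.533 over the alternatives, of which 4 left it short of 2-fold. Col1a2 was at 373, 171 and 266 CPM, with a ratio of 0.457 that was 0.875 without cluster 9 and 0.133 without cluster 7. Col6a1 was at 63.8, 24.8 and 35.9 CPM, and Col6a2 at 43.4, 18.1 and 24.4. Sham was the highest library for each of them and IRI24h-TDN the lowest. In IRI24h-TD, 7 members were 2-fold lower than in Sham (10.2% of genes) and 1 higher (4.91%).

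The makeup of the class moved with these values. Cluster 7 was 45.5%, 34.7% and 46.7% of the PEC-like cells, and cluster 9 was 32.3%, 54.1% and 41.5%. So the same ratios were taken inside each cluster. Col18a1 stayed lower in IRI24h-TDN in all 3: 552 against 327 CPM in cluster 7 (ratio 0.593), 1131 against 502 in cluster 9 (0.444), and 2147 against 1334 in cluster 17 (0.621). Col1a2 was 0.764 of Sham in cluster 7, 0.154 in cluster 9 and 0.123 in cluster 17, on 5 UMIs. Col1a1 was 0.767 and 0.407 in clusters 7 and 9, but 1.79 (1.19 to 2.63) in cluster 17. Col6a1 was 0.787 in cluster 7 and 0.563 in cluster 17, and Col6a2 0.775 and 0.817. The IRI24h-TDN values of cluster 17 rest on 49 cells, and the 72 cells of IRI24h-TD differed from them. There the ratio to Sham was 1.28 (1.004 to 1.61) for Col6a1, 1.42 (1.08 to 1.86) for Col6a2 and 0.647 for Col1a2. In cluster 7, IRI24h-TD was also below Sham, at 0.510 for Col6a1 and 0.462 for Col6a2. Within cluster 7 none of these 5 genes was 2-fold lower in IRI24h-TDN, and within cluster 17 Col1a2 was the 1 that was. Leaving out cluster 9 left 5 members of the class 2-fold lower in place of 10.

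Leaving out the 502 cells of podocyte profile changed the mix of the class as well. Cluster 9 was then 319 of 948 cells in Sham and 226 of 331 in IRI24h-TDN, and the part of this mix in the class ratios was not tested. Over the class, the ratio of IRI24h-TDN to Sham was then 0.439 for Col18a1, 0.370 for Col6a1 and 0.0523 for Col23a1. It was 0.271 (0.242 to 0.303) for Col1a2 and 0.411 (0.351 to 0.478) for Col1a1. In cluster 7 the direction turned for 3 genes in the 56 IRI24h-TDN cells then left. The ratio was 1.51 (1.19 to 1.90) for Col6a1, 1.36 (1.002 to 1.83) for Col6a2 and 1.16 (0.971 to 1.37) for Col1a1. It did not turn in the 117 cells of IRI24h-TD, at 0.917 (0.736 to 1.13), 0.831 (0.625 to 1.09) and 0.935 (0.809 to 1.08). For IRI24h-TDN, Col18a1 was at 0.494 in cluster 7 and Col1a2 at 0.872. Cluster 17 held none of these cells, so its ratios could not change. In cluster 9 the ratio for Col1a2 became 0.437, in place of 0.154. The values of Col1a2 inside clusters 7 and 9, and of type VI inside cluster 7, thus depended on which cells were counted as PEC-like. Those of Col18a1 were below 1 in clusters 7 and 9 with and without these cells, and in cluster 17, which held none of them.

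Col23a1, a transmembrane collagen, had the lowest ratio among PEC-like members with UMIs in both libraries. PEC-like cells had 138, 4 and 1 UMIs of it, or 14.03, 0.739 and 0.159 CPM, a ratio of 0.0527 (0.0142 to 0.138) for IRI24h-TDN. In Sham 6.99% of the cells had a UMI, and 103 of the 138 UMIs lay in cluster 17. There the level was 40.01 and 3.79 CPM in the first 2 libraries, and the third had 0 UMIs. Col11a1 had 37, 0 and 6 UMIs in PEC-like cells. The 0 in IRI24h-TDN puts the ratio to Sham at 0.147 or less, with 3 UMIs as the floor. Both genes therefore marked Sham PEC-like cells more than those of either IRI library.

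**Figure D4:**
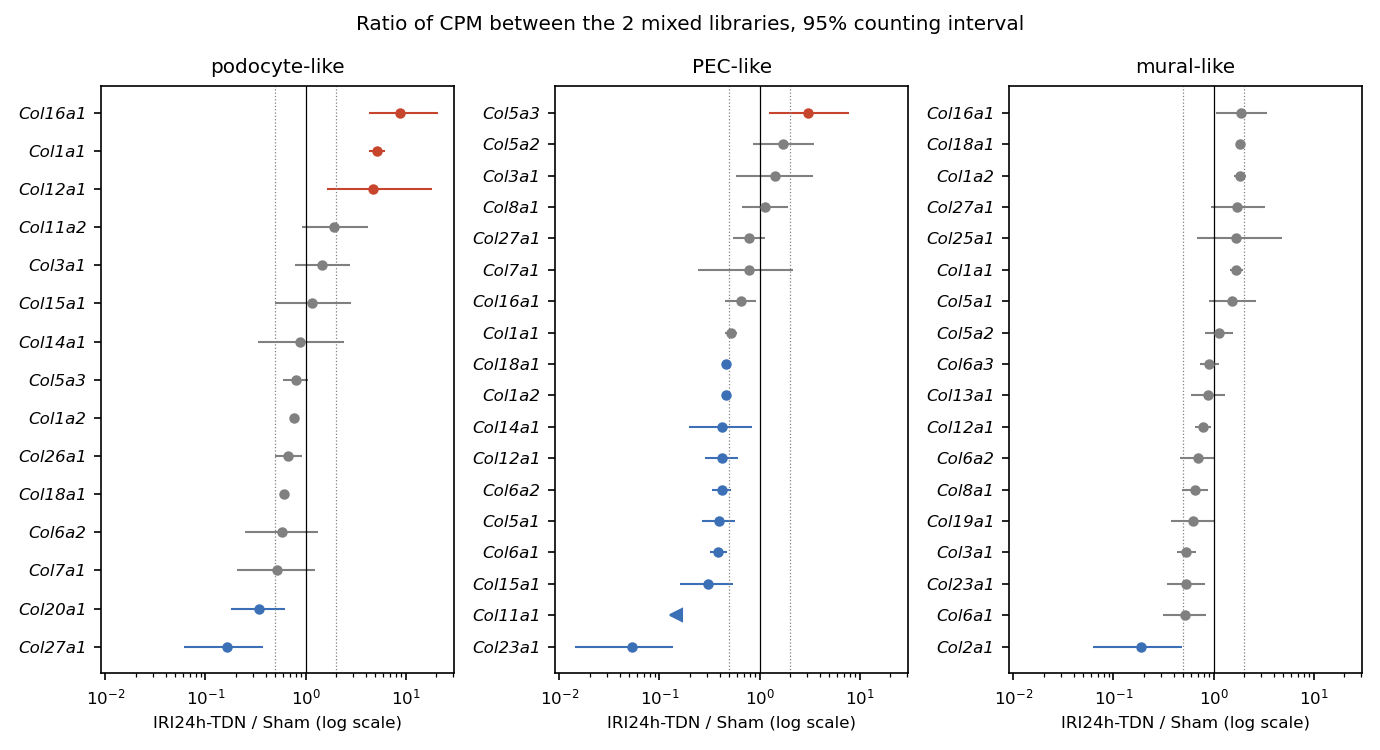
Ratio of CPM in IRI24h-TDN to CPM in Sham (log scale) for each member with at least 20 UMIs in the 2 libraries, in podocyte-like, PEC-like and mural-like cells; bars are 95% counting intervals, dotted lines mark 2-fold, red and blue points are past it, and a triangle is an upper bound. Podocyte-like Col1a1 (5.17) and Col16a1 (8.86) lie far to the right, and 10 PEC-like members lie left of the lower line.

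PEC-like cells with and without a Wt1 UMI were set side by side within clusters. In cluster 17, Col6a1 was at 83.0 CPM in 294 cells with a Wt1 UMI and 180.1 in 85 cells without one, and Col18a1 was at 1872 and 1871. In cluster 7 without its cells of podocyte profile, Col6a1 was at 154 CPM (452 cells) and 272 (92 cells), and Col1a2 at 859 and 868. Cells without a Wt1 UMI were shallower (median 6377 against 10627 UMIs in cluster 17, and 2974 against 7710 in the whole of cluster 7), and the part of depth in these values was not tested. One cell carried 30.5% of the Col6a1 UMIs of the 85 cells.

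Tubule-like cells showed few members each, and which ones depended on the segment. Of 20 members compared over all segments, 3 were 2-fold higher in IRI24h-TDN than in Sham (12.7% of all genes) and 5 lower (14.8%). The mix of segments differed between the libraries, so levels are given within segments. Col27a1, a short fibril-forming collagen, was at 176 CPM in Sham and 82.3 in IRI24h-TDN in connecting tubule and principal cells, and at 76.9 and 25.4 in proximal tubule. Col26a1, which is not grouped with the other types by structure, lay in connecting tubule and principal cells, with 300 of its 309 tubule-like UMIs and levels of 83.0 and 36.8 CPM. Another 348 of its UMIs were in podocyte-like cells, at 2.04 CPM. Col5a2 lay in the ascending limb (306 and 73.7 CPM) and the distal convoluted tubule (76.1 and 40.9), where its partner chain was missing: the ascending limb cells had 613 UMIs of Col5a2 and 0 of Col5a1. These 3 genes were higher in Sham than in IRI24h-TDN in each segment named.

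The proximal tubule had Col6a6, with 236 of its 238 tubule-like UMIs, and Col19a1, with 78 of 79. In Sham they stood at 25.3 and 8.69 CPM, and in IRI24h-TDN at 6.51 and 0.651. The 2 libraries held 1075 and 89 proximal tubule cells, so that the IRI24h-TDN values rest on 10 UMIs and 1 UMI. Col24a1, a fibril-forming collagen best known from bone, lay in intercalated cells, with 7 UMIs in Sham and 56 in IRI24h-TDN (3.36 and 11.8 CPM, intervals of 1.35 to 6.92 and 8.88 to 15.3). Col18a1 was found in every segment, from 134 CPM in proximal tubule to 681 in intercalated cells. In proximal tubule it was 102, 234 and 381 CPM (44 cells in the last), and in intercalated cells 654, 692 and 720.3.

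**Figure D5:**
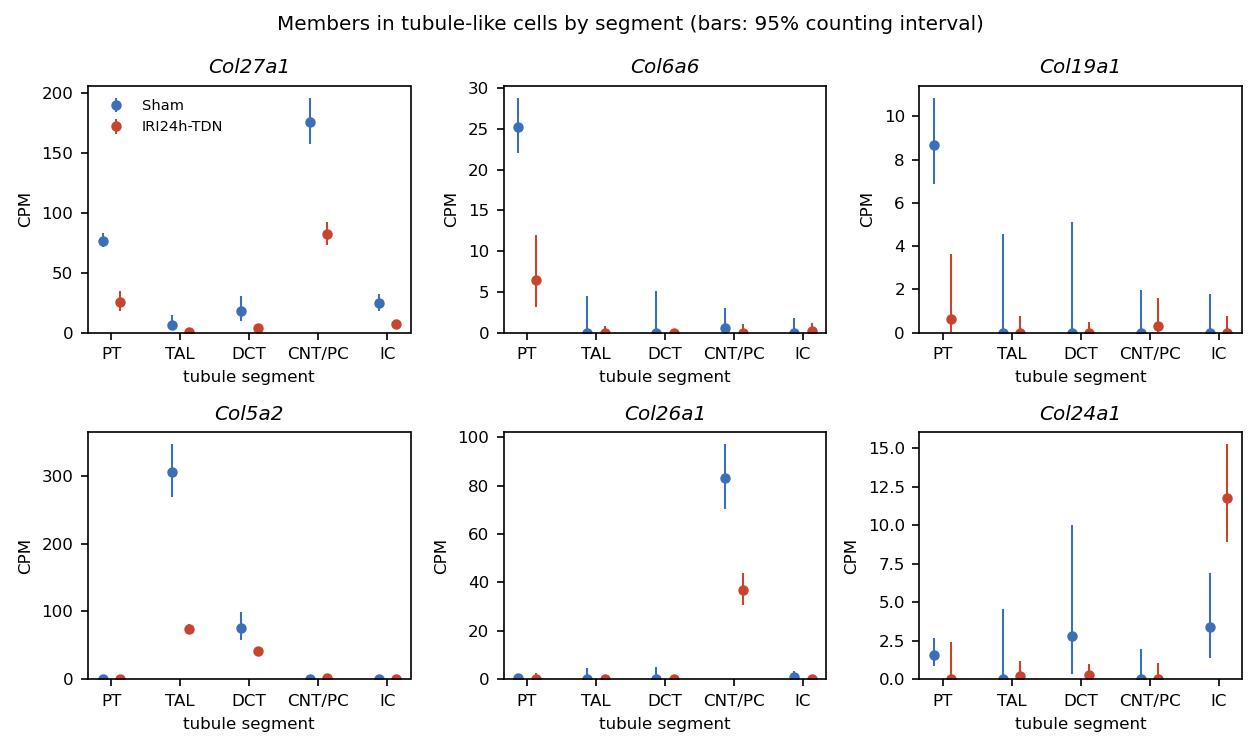
Level (CPM) of 6 members in tubule-like cells of Sham and IRI24h-TDN, by segment (PT, proximal tubule; TAL, ascending limb; DCT, distal convoluted tubule; CNT/PC, connecting tubule and principal cells; IC, intercalated cells), with 95% counting intervals. The genes keep to few segments: Col27a1 in CNT/PC and PT, Col6a6 and Col19a1 in PT, Col5a2 in TAL and DCT, Col26a1 in CNT/PC and Col24a1 in IC.

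Endothelial-like cells, in which fibroblast markers also summed to 357 CPM, had 3 members past the 4-fold limit. Col15a1, a multiplexin of vessel basement membranes, was at 162 CPM in Sham and 70.7 in IRI24h-TDN, a ratio of 0.437 (0.290 to 0.643). Col13a1, a transmembrane collagen, was at 41.1 and 62.6 CPM with overlapping intervals, and Col8a1, a short-chain collagen of vessel walls, was at 22.7 and 64.6, a ratio of 2.85 (1.52 to 5.55). Of 6 members compared, 2 were 2-fold higher (6.46% of all genes) and 2 lower (9.56%). The podocyte markers of this class summed to 28.8% of the podocyte-like level. Col1a2 was at 41.7 CPM in it, and the part of podocyte RNA in that value was not tested.

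Col14a1, a fibril-associated collagen usually ascribed to fibroblasts, was found in immune-like cells. They held 1828 of its 2384 UMIs in kept cells, at 200.4 CPM, against 719.8 CPM in fibroblast-like and 0.140 in podocyte-like cells. Of these, 1696 were in cluster 8, which was led by the chemokine gene Ccl4 and by C1qa, C1qb and C1qc, complement genes of macrophages. In that cluster Col14a1 was at 146 CPM in Sham (124 to 171) and 371 in IRI24h-TDN (353 to 390), and 27.9% and 71.6% of cells had a UMI. The 11 cells of IRI24h-TD gave 272 CPM. Of the 550 cells of the cluster with a Col14a1 UMI, 99.8% also had C1qa and 96.5% Ptprc, and 1.27% had Col1a1. Over immune-like cells, 2 of 6 members compared were 2-fold higher in IRI24h-TDN (13.2% of all genes), Col14a1 and Col1a1, the latter on 4 and 26 UMIs with a ratio of 2.08 (0.721 to 8.20). The 1 lower member was Col27a1 (8.49% of all genes). Col18a1 and Col1a2 stood there at 61.6 and 21.5 CPM, and the part of podocyte RNA in them was not tested.

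The fibroblast-like cells numbered 6 in Sham and 38 in IRI24h-TDN, so that levels are set by few cells. Col1a1 was at 18209 and 7910 CPM in them, Col6a1 at 4376 and 2041 and Col14a1 at 1950 and 574, whereas Col3a1 was at 8605 and 8843. Col5a1 (623 and 572) and Col8a1 (590.0 and 512) had overlapping intervals. All 45 fibroblast-like cells had UMIs of both Col1a1 and Col1a2. All but 5 of them also carried 3 or more markers of another class. Podocyte markers summed to 2363 CPM in the class and PEC markers to 2046, against 15986 for fibroblast markers. The part of RNA from other cells was not tested. No comparison of libraries was counted in this class.

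The remaining members were rare. Col7a1, the collagen of anchoring fibrils, had 22 UMIs in PEC-like cells (1.02 CPM) and 35 in podocyte-like cells (0.205). Col17a1, a transmembrane collagen of hemidesmosomes, had 8 UMIs in PEC-like cells. Col25a1, another transmembrane collagen, had 25 of its 37 UMIs in mural-like cells. Col8a2, the partner of Col8a1, had 9 UMIs in fibroblast-like cells (15.8 CPM) and 9 in PEC-like cells. Col20a1, a fibril-associated collagen, had 88 of its 118 UMIs in podocyte-like cells, but at 0.515 CPM no class stood out.

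The genes that make and process collagen were followed through a list of 39 (chain folding, hydroxylation, secretion, cleavage, crosslinking and receptors), all of which were in the counts. At least 4-fold higher than in all other cells were 17 in fibroblast-like cells (8.1% of all genes), 8 in mural-like (7.26%), 7 in podocyte-like (3.01%), 5 in PEC-like (8%), 3 in endothelial-like (7.91%), 1 in tubule-like (12.9%) and 0 in immune-like cells (10.8%). Podocyte-like cells, with 0 members on that scale, had Plod2, a lysyl hydroxylase, at 1313 CPM, Loxl2, a lysyl oxidase, at 960.2, P3h2, a prolyl 3-hydroxylase, at 115, and Colgalt2, a collagen galactosyltransferase, at 76.8, together with Sparc, Itga2 and Mrc2. Type IV collagen, which podocytes make in quantity, uses these steps too and was not part of the list. Serpinh1, the collagen chaperone HSP47, was at 1312 CPM in fibroblast-like, 246 in PEC-like and 114 in podocyte-like cells.

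Between libraries few genes of this list passed 2-fold in podocyte-like cells. Of 32 compared, Lox, a lysyl oxidase (5.60, 12.7 and 12.9 CPM), and Itga2, a collagen receptor subunit (42.6, 110.0 and 107), were 2-fold higher in IRI24h-TDN (5.62% of all genes), and Itga10 was lower (9.25%). In PEC-like cells 6 of 34 were lower (12.6% of all genes), among them Itga1, another receptor subunit, at 614, 186 and 243 CPM, and P3h3 at 17.99, 4.99 and 10.04. Pcolce2 and Loxl4 were higher (7.43%). The median log2 ratio of the list was 0.09 in podocyte-like and -0.32 in PEC-like cells.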

How the data were processed

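Single cells were captured on the BD Rhapsody system, and the authors deposited 1 table of UMI counts per library, with genes and cell barcodes and no normalization. The study's methods state that multiplets were excluded, and no doublet caller was run here. The submitters' processing notes name CASAVA 1.8, UMI-tools, Seurat and the mm10 genome. Whether strand was used in counting is not given in the sources used here.

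Barcodes with fewer than 200 genes or more than 50% mitochondrial UMIs were left out. Counts were scaled to 10000 per cell, 2000 variable genes without any collagen gene gave 30 principal components, and libraries were aligned with a numpy version of Harmony (theta 2). Leiden clustering (15 neighbours, resolution 1) gave 27 clusters, named X-like from 13 marker lists when at least 3 markers were each detected in 25% of the cells. The members, the lists and the tests were chosen with earlier results of these data known.

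UMIs were summed per class and library. Levels carry exact Poisson, shares exact Clopper-Pearson and ratios exact conditional binomial 95% intervals, which cover counting error only; 3 UMIs stood as the floor where a count was 0. A ratio was formed from 20 UMIs over both groups. Limits of 2-fold between libraries and 4-fold between classes took the place of a test, since each condition had 1 library. All members could be named, and of the list of synthesis genes those past a limit. The Poisson intervals and the 2-fold calls were tried on counts simulated with counting error alone. That setting cannot check them against variation between cells, animals or libraries, and the other intervals were not tried. Alternatives covered filters, clustering, class assignment, scaling, and leaving out single clusters, top cells, shared barcodes or PEC-like cells of podocyte profile (groups of at least 50 cells at resolution 2 with podocyte markers over 50% of the podocyte-like level); the clusters, shared barcodes and cells of podocyte profile to leave out were chosen after seeing the data. Software was Python 3.11.15, numpy 2.4.6, scipy 1.17.1, pandas 2.3.3, scikit-learn 1.9.0, igraph 0.11.9, leidenalg 0.10.2, R 4.3.3 and edgeR 4.0.16 (scaling factors only).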

Additional observations from a re-analysis of the deposited data

Results flagged for a closer look

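For 3 members the ratio of IRI24h-TDN to Sham passed 2-fold in opposite directions in different classes, and the difference between the classes was not tested. Col14a1 had a ratio of 3.30 in immune-like cells and 2.42 in tubule-like cells but 0.426 in PEC-like cells. Col12a1 had a ratio of 4.70 in podocyte-like cells and 2.42 in tubule-like cells but 0.425 in PEC-like cells. Col15a1 had a ratio of 2.004 in tubule-like cells but 0.307 in PEC-like cells and 0.437 in endothelial-like cells. The tubule-like ratios are over all segments, whose mix differed between the libraries, and the part of that mix was not tested. Tubule-like cells of the 3 libraries held only 52 UMIs of Col14a1, 53 of Col12a1 and 94 of Col15a1. In PEC-like cells the direction turned for Col14a1 (1.03 with each cell classed by its own markers, 1.04 without cluster 7) and for Col15a1 (1.46 with own markers). In the 42 cells that were given no class, Col17a1 was found at 20.8 CPM, on 11 of its 34 UMIs in kept cells. Their leading genes were Sprr1a, Krt19 and Krt5.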

How the results depend on the processing

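With 1 library per condition nothing here can be checked against replicates. No paired analysis was possible because the labels give each condition a single library. At least 500 genes per barcode, a resolution of 0.5 and leaving out shared barcodes moved none of the counts, shares and ratios below. The number of members highest in fibroblast-like (16) and mural-like cells (6) did not move by over 1.5 times under the alternatives run, and cell assignment moved most of the rest.

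Of podocyte-like members, 3 were 2-fold higher in IRI24h-TDN, and 5 were with each cell classed by its own markers; 2 were lower, against 5 without Harmony, 4 with own markers and 1 with a minimum of 50 UMIs. Of PEC-like members 1 was higher. This was 0 without Harmony, at resolution 2, without cells of mixed markers, without the 3 top cells of each gene, without the 502 cells of podocyte profile and with 50 UMIs, 2 by the mean over cells and 3 with own markers; the 10 lower ones were 6 by the mean over cells and 5 without cluster 9. Of mural-like members 0 were higher, against 5 with own markers and 3 without mixed cells, without top cells or by the mean over cells, and the 1 lower was 2 with own markers or by the mean over cells and 0 with 50 UMIs. The 2 members highest in PEC-like cells were 1 without Harmony, without top cells, with 50 UMIs and without cluster 9, and 1 member was highest in podocyte-like cells without top cells.

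The podocyte-like share of member UMIs (65.3%) was 67.8% with at most 20% mitochondrial UMIs and 67.8% without Harmony, 67.7% at resolution 2, 69.8% with own markers, 90.9% without mixed cells, 68.6% without top cells and 59.6% without cluster 5. The fibroblast-like share (8.81%) was 8.39% with own markers, 1.13% without mixed cells, 5.999% without top cells and 6.76% by the mean over cells. Leaving out mixed cells, those with 3 or more markers of another class, kept 5 of 45 fibroblast-like and 302 of 2207 PEC-like cells. It kept 383 of 766 mural-like and 16625 of 18451 podocyte-like cells, and the shares without mixed cells are of the UMIs in the cells kept. Col1a1 per Col1a2 in podocyte-like cells (0.0806) was 0.0838 at resolution 2, 0.0858 with own markers, 0.0738 without mixed cells, 0.0753 by the mean over cells and 0.0647 without cluster 5; in fibroblast-like cells (1.06) it was 0.905 without mixed cells, 0.981 without top cells and 1.11 by the mean over cells. Of the collagen synthesis genes, 12 passed 2-fold between Sham and IRI24h-TDN in podocyte-like, PEC-like and mural-like cells together, and 19 without the cells of podocyte profile. The direction reversed for PEC-like Col14a1 (1.03 with own markers, 1.04 without cluster 7) and Col15a1 (1.46 with own markers). The cause was not tested. Scaling by edgeR's TMM was not run for shares, chain ratios and highest classes, and the mean over cells was not run for the 4-fold counts.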
